A study of Stylophora pistillata with 6 samples.

Results

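DMBT1 (Spis18446) and MRC1 (Spis5178.t1) are 2 of the 25769 gene models of the reef coral Stylophora pistillata for which reads were counted, and the only ones in the study's list of changed genes that carry the names of a scavenger receptor cysteine-rich protein and of a mannose receptor. Both were picked for this description from that list, in which they were already marked as lower in day than in night samples, so their day and night levels are given as a description and without a test. The names are best BLAST hits, to a mouse protein for DMBT1 and a human protein for MRC1. Branch apices were sampled as "day" samples, frozen with 1 h of light left, and as "night" samples, frozen with 1 h of darkness left, with light and dark phases of 12 h each. There were 3 libraries in each group. All microcolonies came from 3 syngenic parent colonies, had recovered for 10 days and were kept at 25 °C, a salinity of 38 and 175 µmol photons per square metre and second in the light phase. Both groups carried their symbiotic algae, and whole apex tissue was ground, so fewer cells of a type and less RNA per cell cannot be told apart. Which parent colony a replicate came from is not stated, and the spread between replicates given here may therefore be partly technical. No cell type markers could be checked, because no names were at hand for gene models outside the study's list.

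Scavenger receptors and lectins are pattern recognition proteins of the innate immune system. In mammals, DMBT1 is a secreted glycoprotein of mucosal surfaces, built mainly of scavenger receptor cysteine-rich domains, that binds bacteria and their surface molecules. MRC1, the macrophage mannose receptor, is a membrane protein of macrophages and some endothelial cells that carries a row of C-type lectin domains, binds glycans ending in mannose and takes its ligands up by endocytosis. In cnidarians, lectins and scavenger receptors have been discussed as receptors for microbes and for the dinoflagellate symbionts. Whether these coral gene models have the roles of their mammalian namesakes was not measured here.

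MRC1 was also among the genes for which the study designed qPCR primers, and these are the only sequences of the pair in the sources used here. They are shown because the study gave them as its MRC1 primers and amplicon. Whether the amplicon lies in Spis5178.t1 was not checked, as no sequence of that gene model was at hand. The study measured MRC1 with them by qPCR in other day and night samples, and that measurement is not analysed here, so the MRC1 values below rest on the sequenced libraries alone. The amplicon is 93 bases long with 40.9% G and C, and its capitals mark the primer sites (22 bases at the left end and 21 at the right, where the sequence is the reverse complement of the reverse primer).
MRC1 forward primer: cgtgttccttccatgtcttgtt
MRC1 reverse primer: tgaaaacgatcgtggctgtta
MRC1 amplicon: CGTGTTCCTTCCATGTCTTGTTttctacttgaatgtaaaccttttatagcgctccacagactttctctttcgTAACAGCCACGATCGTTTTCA
The strand of the printed amplicon is not stated. Of its 6 reading frames, 1 had 0 stop codons, and that frame was the second of the reverse complement, whereas the other 5 each had 1 or 2. The position of the amplicon in the genome was not analysed here.

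Levels are given as CPM, counts scaled to the library's total of reads on coral gene models with TMM factors. The day libraries held 1552480 to 6619275 such reads (median 2833800) and the night libraries 1916270 to 3062255 (median 2621328), and day replicate 3 was the deepest. The deposited table is nested, in that a short ID such as Spis1844 also counts the reads of every ID that begins with it, and these reads were subtracted. Neither Spis18446 nor Spis5178.t1 forms the start of another ID (0 longer IDs each), so the reads of both members are the values as deposited. The counting intervals below are exact Poisson intervals at 95% and cover counting alone. How reads that fit several gene models were treated is not given in the sources used here, so reads from near-identical copies of repeated receptor domains may be included in these counts.

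DMBT1 was low in every day library and high in every night library. In the day libraries, replicates 1, 2 and 3 had 39, 19 and 134 DMBT1 reads. In the night libraries, replicates 1, 2 and 3 had 1132, 644 and 1224 DMBT1 reads. After scaling, DMBT1 stood at 14.0, 12.2 and 19.7 CPM in day replicates 1, 2 and 3, against 366, 336 and 479 CPM in night replicates 1, 2 and 3. The groups did not overlap, and the lowest night library was 17.1 times the highest day library. Means were 15.3 ± 3.94 CPM by day and 394 ± 75.4 CPM by night (SD, n = 3 each). DMBT1 was 24.7-fold lower by day, with a log2 fold change, day minus night, of -4.63 (standard error 0.25). This was the rank 3 fall in size among the 99 gene models called lower by day in the fit described below.

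MRC1 was detected at a fair level at both times and was lower in every day library. In the day libraries, replicates 1, 2 and 3 had 159, 90 and 612 MRC1 reads. In the night libraries, replicates 1, 2 and 3 had 580, 321 and 477 MRC1 reads. After scaling, MRC1 stood at 56.9, 57.7 and 90.0 CPM in day replicates 1, 2 and 3, against 188, 168 and 187 CPM in night replicates 1, 2 and 3. The groups did not overlap here either, but the gap was narrow, with the lowest night library 1.86 times the highest day library. Means were 68.2 ± 18.9 CPM by day and 181 ± 11.3 CPM by night (SD, n = 3 each). MRC1 was 2.61-fold lower by day (log2 fold change -1.39, standard error 0.20), rank 54 of the same 99. Over all 24180 gene models with a read, 5.04% had every day library below every night library, which includes both members, and 0.409% were called lower by day.

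**Figure D1:**
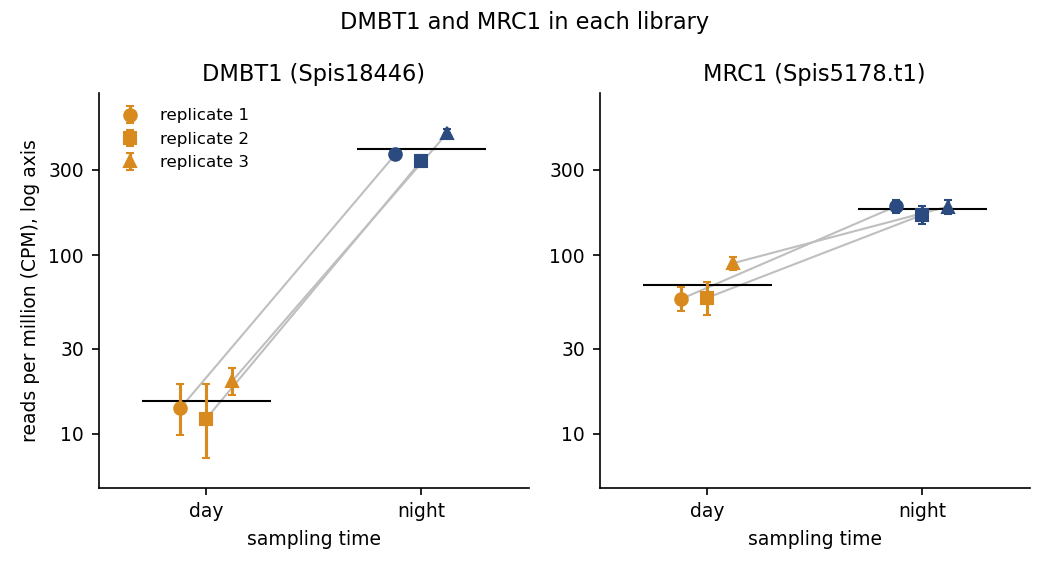
Level of DMBT1 (left) and MRC1 (right) in each library, in CPM on a log axis, with day libraries left of night libraries. Points are libraries, with symbols for the replicate number and bars for the exact Poisson interval at 95%, black lines are group means, and grey lines join libraries of the same replicate number. DMBT1 spans 12.2 to 19.7 CPM by day and 336 to 479 CPM by night, and MRC1 spans 56.9 to 90.0 CPM by day and 168 to 188 CPM by night.

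Within the groups, day replicate 3 held the highest level of both genes. For DMBT1 the counting interval of day replicate 3, 16.5 to 23.3 CPM, overlapped those of day replicate 1 (9.92 to 19.1 CPM) and day replicate 2 (7.33 to 19.0 CPM). For MRC1 the interval of day replicate 3 was 83.0 to 97.5 CPM and lay above those of day replicate 1 (48.4 to 66.5 CPM) and day replicate 2 (46.4 to 70.9 CPM), so this spread exceeded counting error. The spread of MRC1 was wider by day (coefficient of variation 27.7%) than by night (6.27%), whereas that of DMBT1 was 25.8% by day and 19.1% by night. No test of these spreads was made with 3 libraries in each group. Day replicate 3 is also the deepest library. With all libraries thinned to the smallest, the log2 fold change was -4.62 for DMBT1 and -1.37 for MRC1, and without day replicate 3 it was -4.89 and -1.65.

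Taken by replicate number, a pairing inferred from these data, the ratios of DMBT1 lay closer together than those of MRC1. DMBT1 was 26.3-fold lower in day replicate 1 than in night replicate 1, 27.6-fold lower in day replicate 2 than in night replicate 2, and 24.3-fold lower in day replicate 3 than in night replicate 3. Replicate 3 had the highest level and replicate 2 the lowest level of DMBT1 at both times, so the ratio varied less than the levels did. By day the order of replicates 1 and 2 is not settled, as their counting intervals overlapped (9.92 to 19.1 and 7.33 to 19.0 CPM). How even the DMBT1 ratios are beyond counting error was not tested. MRC1 was 3.30-fold, 2.91-fold and 2.07-fold lower by day in replicates 1, 2 and 3, and the small ratio of replicate 3 came from its high day level. With the replicate number as a block in edgeR, the log2 fold change was -4.68 for DMBT1 and -1.42 for MRC1.

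The reads of both members also sit inside the deposited values of shorter IDs, which affects any use of those rows. Spis1844, a gene model without a name, is the start of Spis18446, and DMBT1 supplied 3.93%, 6.40% and 8.24% of its deposited value in day replicates 1, 2 and 3, against 70.0%, 62.8% and 72.7% in night replicates 1, 2 and 3. Spis517 is the start of Spis5178.t1, and MRC1 supplied 13.6%, 14.3% and 21.7% of its deposited value in day replicates 1, 2 and 3, against 36.8%, 32.5% and 35.5% in night replicates 1, 2 and 3. These shorter IDs were chosen after their values were seen. With the deposited values Spis1844 passed edgeR's test as lower by day (adjusted p = 0.035), at a log2 fold change of -1.12 ± 0.21 (standard error). With its own reads alone, 36.1, 30.1 and 49.1 CPM in day replicates and 22.0, 17.8 and 38.4 CPM in night replicates, Spis1844 missed the threshold of edgeR's test (adjusted p = 0.91), at a log2 fold change of 0.58 ± 0.27 (standard error). The groups then overlapped, although the day library was the higher one in each of the 3 pairs of equal number, and with the replicate block the adjusted p was 0.21 from edgeR. Spis517 did not pass in either form, with a log2 fold change of -0.32 as deposited and 0.23 from its own reads (adjusted p = 0.77 and 1.0 from edgeR). In still shorter IDs the share was smaller, and DMBT1 made up at most 18.9% of the deposited value of Spis184 and 1.05% of that of Spis18, both in night replicate 3.

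**Figure D2:**
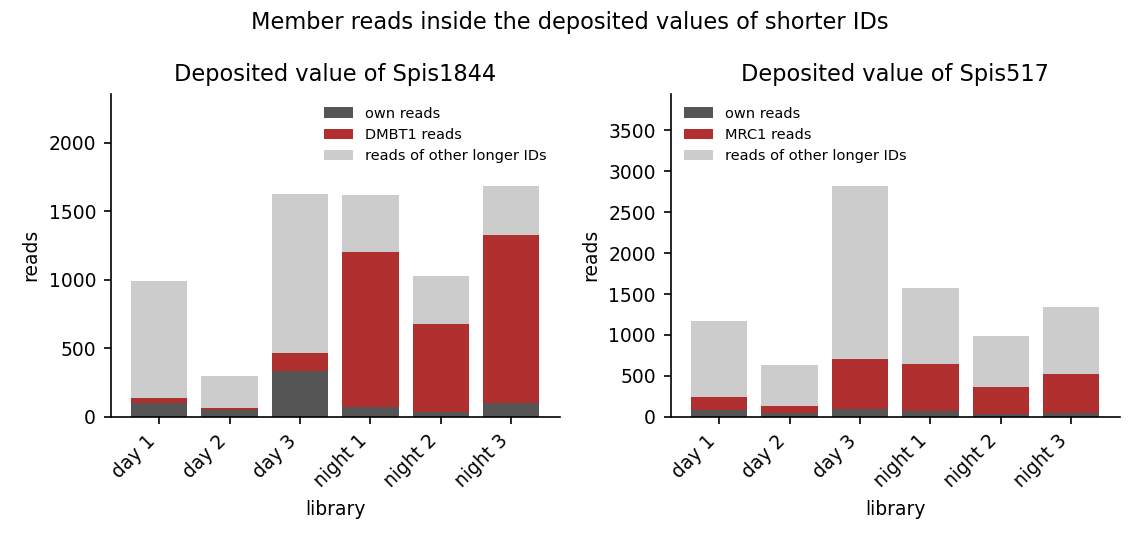
Deposited read counts of Spis1844 (left) and Spis517 (right) in each library, split into the row's own reads (dark grey), the reads of DMBT1 or MRC1 (red) and the reads of other longer IDs (light grey). DMBT1 supplies 62.8% to 72.7% of the Spis1844 value in night libraries and 3.93% to 8.24% in day libraries.

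No gene model with an ID number close to that of a member passed the test. Neighbouring numbers were examined because several gene models in the study's list have consecutive numbers. All 20 gene models within 5 numbers of either member were taken, whatever their values, and 19 had a read. In edgeR's quasi-likelihood test across all 24180 gene models, 0 of the 19 were called (0 higher and 0 lower by day, smallest adjusted p = 0.98), and 0 had an unadjusted p under 0.05. The background share was 0.666% of all gene models called, 62 higher and 99 lower by day, so a count of 0 among 19 is near that share. That split depended on the setting, with 209 higher and 200 lower under the replicate block in edgeR, and 128 higher and 105 lower without day replicate 3. DESeq2 called 0 of the 13 to which it gave an adjusted p (0.803% of all such gene models called), and limma-voom 0 of the 11 it tested (0.461% called). The count stayed at 0 under all 16 alternatives, which tested 11 to 19 of the neighbours. The median log2 fold change of the 10 neighbours of DMBT1 was 0.15 and that of the 9 tested neighbours of MRC1 was -0.01, beside a median of 0.005 over all gene models.

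The numbers next to DMBT1, Spis18445 and Spis18447.t1, had log2 fold changes of -0.16 (standard error 0.66) and 0.19 (standard error 0.21). Among its neighbours of at least 1 CPM on average, the larger differences were those of Spis18442, at 116 ± 79.3 CPM by day and 71.7 ± 10.7 CPM by night (SD, n = 3 each), and Spis18448, at 9.19 ± 3.25 CPM by day and 5.73 ± 2.28 CPM by night (SD, n = 3 each). The wide day spread of Spis18442 came from day replicate 1, at 206 CPM against 54.5 and 88.9 CPM in day replicates 2 and 3. Next to MRC1, Spis5177 and Spis5179 had log2 fold changes of -0.04 (standard error 0.24) and 0.41 (standard error 0.37). The neighbour most like MRC1 in direction was Spis5176, with 4, 2 and 10 reads in day replicates and 7, 9 and 8 in night replicates. Its groups did not overlap in CPM and its log2 fold change was -1.19 (standard error 0.62, adjusted p = 0.98 from edgeR).

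**Figure D3:**
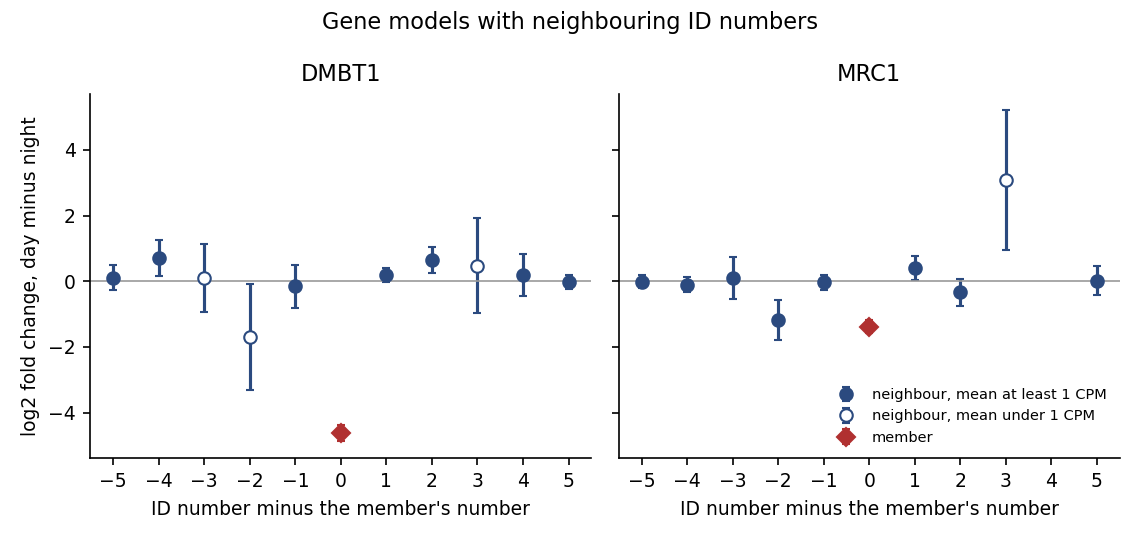
Log2 fold change, day minus night, of DMBT1 (left) and MRC1 (right) as red diamonds and of the gene models up to 5 ID numbers away as circles, open where the mean was under 1 CPM. Bars are standard errors. DMBT1 lies at -4.63 and MRC1 at -1.39, and the neighbours of at least 1 CPM lie between -1.19 and 0.71.

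The gene models whose pattern over the 6 libraries was most like that of each member were sought by the root-mean-square difference of log2 CPM (prior count 2), each gene centred on its own mean, among 15984 gene models that averaged 5 CPM or more. This measure follows the day and night levels by which the members were chosen, so it is given as a description. The average was taken over all 6 libraries, so a gene model could pass the minimum through its night level alone. For MRC1 the match was close, with distances of 0.17 to 0.20 for the nearest 5 against a median of 0.79 over all compared. They were CB042 (Spis2785), an uncharacterized protein, Spis11234, which has no name, ABCB6 (Spis7710), an ATP-binding cassette transporter, SCRB2 (Spis3490) and SC5A9 (Spis20327), a sodium/glucose cotransporter. Of these 5, 4 are in the study's list, and Spis11234 is not. Spis11234 stood at 2.77 ± 0.407 CPM by day and 7.83 ± 1.56 CPM by night (SD, n = 3 each). It thus passed the minimum through its night level.

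SCRB2, the lysosome membrane protein 2, belongs to the CD36 family of class B scavenger receptors and in mammals carries a lysosomal enzyme to its compartment. It stood at 28.3, 20.5 and 35.6 CPM in day replicates 1, 2 and 3, against 65.7, 55.4 and 75.6 CPM in night replicates 1, 2 and 3. As with MRC1, day replicate 3 was its highest day library, and the groups did not overlap.

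For DMBT1 the distances were larger, but so was the median over all compared, at 2.35. A distance grows with the size of a gene's own difference, so the distances of both members are not on one scale. The nearest 5 lay at distances of 0.76 to 0.91, and all 5 are in the study's list: Spis1682, which has no BLAST hit, MOT12 (Spis17877), a monocarboxylate transporter, D39U1 (Spis2837), an epimerase family protein, DAUE (Spis11343), whose best hit is a bacterial reductase, and Spis23685, without a name. Their folds were smaller, with log2 fold changes from -3.81 for Spis1682 to -2.87 for Spis23685. MOT12, D39U1 and DAUE passed the minimum of 5 CPM through their night levels, with day means of 0.985, 3.27 and 0.992 CPM. In day replicates 1, 2 and 3, MOT12 had 4, 1 and 6 reads, and DAUE had 2, 1 and 11. Without day replicate 3, the log2 fold change was -3.80 for D39U1, against -2.99 with all libraries, and -4.16 for DAUE, against -3.46. That of Spis1682 was -0.69 with the values as deposited, which hold the reads of longer IDs, and -3.81 from its own reads. Spis1682 had 3.22, 13.5 and 9.12 CPM in day replicates and 129, 115 and 102 CPM in night replicates. Its night level was highest in replicate 1, where that of DMBT1 was highest in replicate 3. The members themselves lay 1.61 apart, and MRC1 was number 45 in order of nearness to DMBT1, while DMBT1 was number 15873 of 15984 in order of nearness to MRC1. They share the direction but not the size of the difference.

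**Figure D4:**
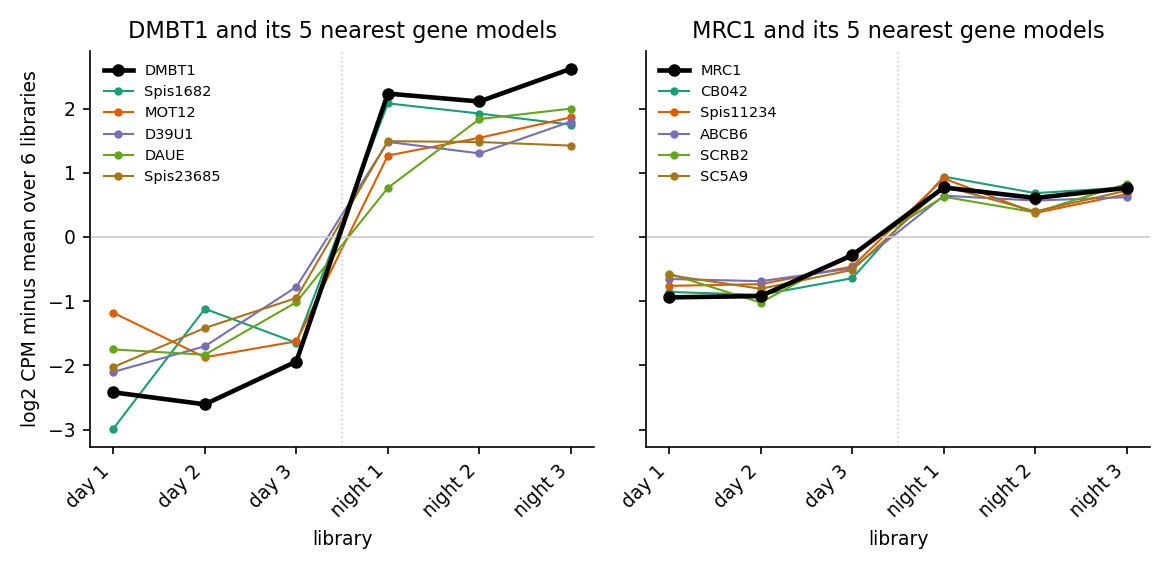
Log2 CPM minus the gene's own mean over the 6 libraries, for DMBT1 (left, black) and MRC1 (right, black) and the 5 gene models nearest to each (coloured lines). Day libraries are left of night libraries. The lines around MRC1 lie within 0.20 of it by root-mean-square difference, and those around DMBT1 at 0.76 to 0.91, with smaller folds than DMBT1.

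A chosen set of 9 other binding proteins from the study's list, most of them surface or secreted proteins, moved in both directions. The set includes SCRB2, a lysosome membrane protein of a scavenger receptor family, which is counted again among the lysosomal gene models below. The set leaves out transporters, proteases and secreted lipid carriers such as apolipophorin (APLP), and another choice could give another split. Of these 9 gene models, 6 were called lower and 3 higher by day by edgeR, beside 0.409% and 0.256% of all gene models, and their median log2 fold change was -1.18. The study chose them on these same libraries, so their being called was largely set in advance. The count is also not independent evidence of a direction, and among all gene models called 99 were lower and 62 higher by day. EDIL3 (Spis20715), a secreted protein that binds integrins and phosphatidylserine in mammals, stood at 1.35 ± 0.0770 CPM by day and 12.8 ± 4.49 CPM by night (SD, n = 3 each). ANPRA (Spis14052), a natriuretic peptide receptor, stood at 2.88 ± 0.605 CPM by day and 14.4 ± 0.621 CPM by night (SD, n = 3 each). In day replicates 1, 2 and 3, EDIL3 had 4, 2 and 9 reads and ANPRA 10, 4 and 17. Their day levels are therefore less certain than the SD shows. MALR1 (Spis16164), which carries MAM and LDL-receptor class A domains, stood at 35.7 ± 2.97 CPM by day and 95.4 ± 4.09 CPM by night (SD, n = 3 each). All of these were lower in every day library.

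LSAMP (Spis21041), an adhesion protein of the immunoglobulin superfamily, SCRB2 and LAR (Spis17942), a receptor tyrosine phosphatase, were also lower, with log2 fold changes of -1.33, -1.18 and -1.01. LAR (adjusted p = 0.03 from edgeR) lost its call under both filters on low counts, under limma-voom, and when any library other than night replicate 3 was left out (adjusted p from 0.06 to 0.29). Those that rose by day were HMCN1 (Spis23455) and HMCN2 (Spis14495), hemicentins of the extracellular matrix, with log2 fold changes of 3.41 and 0.85, and NPFF2 (Spis10371.t1), a neuropeptide receptor, at 41.6 ± 8.28 CPM by day and 17.9 ± 3.79 CPM by night (SD, n = 3 each). HMCN1 rested on 2, 0 and 5 reads in night replicates 1, 2 and 3, and its log2 fold change was 4.57 without night replicate 3. Without night replicate 1 none of these 3 passed in edgeR (adjusted p = 0.064 for HMCN1, 0.13 for HMCN2 and 0.086 for NPFF2). HMCN2 also missed the threshold without night replicate 2 (0.079) or 3 (0.067) and in the blocked DESeq2 fit (0.06), and NPFF2 without day replicate 2 (0.069) or night replicate 2 (0.096). Of the 9, limma-voom called 4, all lower by day, beside 0.31% of the gene models it tested.

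From the study's list, 3 gene models were picked for the lysosome, where ligands taken up by a mannose receptor end in mammals. They are a chosen set, and another choice could give another count. Of these, edgeR called 3 of 3 lower by day, beside 0.409% of all gene models. They were SCRB2, PAG15 (Spis14259), a lysosomal phospholipase A2, and SPIN (Spis17125), whose fly namesake spinster is a membrane protein of late endosomes and lysosomes. PAG15 stood at 37.5 ± 6.20 CPM by day and 86.6 ± 26.9 CPM by night (SD, n = 3 each). SPIN stood at 39.9 ± 3.16 CPM by day and 92.7 ± 4.39 CPM by night (SD, n = 3 each). Their log2 fold changes were -1.18, -1.19 and -1.22, beside -1.39 for MRC1. Gene models of other kinds in the study's list had log2 fold changes closer to that of MRC1, among them MALR1 at -1.42 and LSAMP at -1.33. By pattern over the libraries, SCRB2 was among the 5 nearest to MRC1, while PAG15, SPIN, MALR1 and LSAMP were not. A link between MRC1 and the lysosomal gene models was not tested. These 3 were likewise chosen by the study on these libraries, and with limma-voom 1 of the 3 passed, beside the same 0.31%. Lysosomal gene models outside the study's list could not be counted, as they had no names here.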

How the data were processed

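Poly(A) RNA of 6 libraries was sequenced on a SOLiD instrument. Per gene model, the authors kept the longest coding sequence, aligned the colorspace reads to it with Bowtie (version 1.2.3 per the submitters' processing notes), counted reads with a Python script and deposited whole-number counts, neither normalized nor pooled. Strand handling is not given in the sources used here. Reads of longer IDs were subtracted from IDs that form their start, longest first, which concerned 2371 gene models (9.2%) and left 0 values below 0. The sum went from 68146012 to 18605408 reads.

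Day was compared with night in R 4.3.3 with edgeR 4.0.16 (TMM, factors 0.974 to 1.027, robust quasi-likelihood F test, two-sided, Benjamini-Hochberg over 24180 gene models, threshold 0.05). The standard error is the log2 fold change divided by the square root of F. The 1589 gene models with 0 reads were left out. Alternatives used DESeq2 1.42.0, limma-voom (limma 3.58.1), RLE size factors, library totals, filterByExpr, a minimum of 10 reads, a replicate block, thinned libraries, the deposited values, and each library left out. The scripts were checked on simulated data. Figures were drawn with matplotlib 3.10.9 in Python 3.11.15, and tables were made with pandas 2.3.3 and scipy 1.17.1. Counting error was 22.9% at 19 reads and 2.97% at 1132 reads.

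Same-numbered day and night libraries deviated together from their group means over 14262 gene models (r = 0.24, 0.19 and 0.37, against -0.28 to 0.09 for different numbers), and on this basis equal numbers were treated as pairs. The pairing comes from the data, since no source ties a number to a parent colony. Deviations within a group cancel out, so positive values for equal numbers lower those for different numbers, and the contrast is partly built in. The p-values of the blocked fits rest on a block inferred from these same libraries.

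The members and lists were chosen with earlier results of these data known. Named are the members, the 5 gene models nearest to each, the members of the lists from the study, and number neighbours with the larger differences, of which some are described. Number neighbours next to the members, and shorter IDs that hold their reads, were added. A count of receptor and lectin families was set out but could not be made, since 0 of 25769 IDs matched the reference table.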

Additional observations from a re-analysis of the deposited data

How the results depend on the processing

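DMBT1 and MRC1 were lower by day under all 16 alternatives. Both were chosen for this direction and their groups did not overlap, so it was largely set in advance, and the alternatives show only how the size varied. Leaving out 1 library at a time gave log2 fold changes of -4.89 to -4.44 for DMBT1 and -1.65 to -1.27 for MRC1, and the other alternatives gave -4.69 to -4.56 and -1.43 to -1.36. All these shifts were smaller than the spread between replicates, except that the shift of MRC1 without day replicate 3 came close to it (SD 0.27 on the log2 scale). The replicate block changed no call among the number neighbours. It gave 409 calls over all gene models, against 161 without it, and limma-voom gave 79. Leaving out 1 library gave 94 (without night replicate 2) to 233 calls (without day replicate 3). Of the 9 gene models in the set of binding proteins, 4 passed with limma-voom and 5 to 8 when 1 library was left out. Of the 3 lysosomal ones, 1 passed with limma-voom. Spis1844 turned to a log2 fold change of -1.12 with the values as deposited, which hold the reads of DMBT1. With a prior count of 0.5, 4 of the 5 gene models nearest to DMBT1 and 5 of those nearest to MRC1 were shared, and with a minimum of 1 CPM all 5 of each. In the shallowest library, day replicate 2 with 1552480 reads, DMBT1 rested on 19 reads, of 192 over the day libraries. Its counting error there, as the Poisson SD, was 22.9%, and the wider 95% interval ran from 7.33 to 19.0 CPM. The standard error of the log2 fold change was 0.25 for DMBT1 and 0.20 for MRC1.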
